A study of Mus musculus with 6 samples.

Results

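The genes described here are 38 hypoxia-inducible and glycolysis genes, read by symbol in single-cell RNA libraries of the mouse genioglossus, the tongue muscle that pulls the tongue forward. All 38 were found among the 33696 genes of the deposited count matrices. Samples were male primary tissue of 1 labelled batch, named control or OSA-4W (obstructive sleep apnea, a disorder in which the upper airway closes repeatedly during sleep). Week 4 was recorded for every sample, control and OSA alike. The labels name no strain, age or genotype, and do not say how the apnea model was made or whether each library came from its own animal. The p-values below therefore measure the spread between these libraries, which may be technical. Matrices were read for 1 control library (control replicate 2) and 3 OSA libraries (OSA replicates 1, 2 and 3), and the other 2 control libraries were not analysed here. With 1 control the spread comes from the OSA libraries alone, the control is assumed to vary like them, and an exact permutation of 1 library against 3 could not go below a p of 0.25.

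Cells meet low oxygen through the hypoxia-inducible factors, transcription factors whose alpha subunits are hydroxylated and destroyed while oxygen is plentiful. When oxygen falls, the stable factor binds DNA at short sites that hold the letters ACGTG or GCGTG and raises genes for glucose uptake, glycolysis, lactate export and the trimming of mitochondria. Many of the same genes rise in macrophages and neutrophils when these cells are activated, with oxygen unchanged. The list holds glucose transporters, the enzymes of glycolysis, the lactate exporter Slc16a3, and targets with other roles such as Bnip3, Hilpda and Cited2.

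After filtering, 12229 to 15218 cells per library were kept, from matrices with a median of 3889 to 4879 UMIs (counted transcript molecules) per barcode. Between 41 and 67 barcodes were shared by any pair of libraries. Cells were grouped into classes by marker genes, with the 38 genes left out of the clustering, and the UMIs of a class were summed per library. The labels give the cell type as skeletal muscle cells, but myofibre markers defined a class of 16 control cells, with 10, 44 and 13 cells in the OSA libraries. 11 classes had at least 30 cells in each library and were tested. Cells named from haemoglobin genes are called haemoglobin-rich here, because endothelial markers summed to between 14514 and 18487 CPM in them (counts scaled to a common total), against 19629 to 23037 in the endothelial-like class. OSA replicate 2 stood apart: neutrophil markers summed to between 548 and 880 CPM in its 10 classes that are not neutrophil-like, macrophage-like cells included, against at most 43.1 CPM in those of the control.

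Promoters of the list were searched for the letters of these sites. RefSeq windows of 300 bases (build GRCm38.p6, from 250 bases before a transcription start to 50 after it) matched 35 of the 38 genes through 51 start sites, and Slc2a3, Bnip3l and Ndrg1 had no entry. ACGTG on either strand stood in 28 of the 51 windows (54.9%), against 19.6% of all 32851 windows in the table. GCGTG on either strand also stood in 28 of the 51 windows (54.9%), against 32.4% of all windows. Some ACGTG matches lie within the palindrome CACGTG, which was held by 7.84% of the 51 windows and 7.15% of all windows. A match is only a run of letters, and neighbouring starts of 1 gene share sequence. The list was chosen as hypoxia-inducible and glycolysis genes, so a higher share of these letters is no independent result. All windows served as background, without matching for base content.

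Of the 6 genes called in macrophage-like cells below, 4 have a single start in the table, and the 250 bases before it are printed to show where ACGTG falls in a gene of each kind: a glycolytic enzyme, a lactate exporter, a cytokine and the 1 gene that was lower. Capitals mark ACGTG or its reverse complement CACGT, and CACGTG where both overlap. Each sequence runs 5′ to 3′ on the gene's own strand and ends at the base before the start.
Pgk1, chrX:106186850-106187099, plus strand: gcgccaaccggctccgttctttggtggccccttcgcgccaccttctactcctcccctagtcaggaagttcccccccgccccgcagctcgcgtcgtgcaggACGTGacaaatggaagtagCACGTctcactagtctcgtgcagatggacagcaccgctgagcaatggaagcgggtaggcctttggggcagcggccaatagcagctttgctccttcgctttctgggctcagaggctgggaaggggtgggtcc
Slc16a3, chr11:120948817-120949066, plus strand: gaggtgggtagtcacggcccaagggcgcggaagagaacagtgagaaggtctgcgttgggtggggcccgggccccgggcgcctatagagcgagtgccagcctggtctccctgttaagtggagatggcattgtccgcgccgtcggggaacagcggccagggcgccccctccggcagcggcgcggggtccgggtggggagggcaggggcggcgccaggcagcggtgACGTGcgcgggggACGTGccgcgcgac
Mif, chr10:75860278-75860527, minus strand: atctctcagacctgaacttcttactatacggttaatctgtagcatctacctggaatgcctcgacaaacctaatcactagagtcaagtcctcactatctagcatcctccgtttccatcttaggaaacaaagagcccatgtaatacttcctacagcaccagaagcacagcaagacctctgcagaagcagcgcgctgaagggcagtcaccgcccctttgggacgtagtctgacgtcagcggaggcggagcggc
Cited2, chr10:17722978-17723227, plus strand: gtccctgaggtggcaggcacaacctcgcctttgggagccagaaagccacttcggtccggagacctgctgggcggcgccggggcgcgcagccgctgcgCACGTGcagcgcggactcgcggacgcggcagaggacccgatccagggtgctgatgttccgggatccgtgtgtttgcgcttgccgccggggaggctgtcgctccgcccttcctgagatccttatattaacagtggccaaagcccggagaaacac
Pgk1 held 2 matches, whose first bases lie 150 and 131 bases before the start. Slc16a3 held 2 close to its start, at 27 and 14 bases. The stretch before the Mif start held 0 (its 300-base window held 1 match, after the start), and the stretch before Cited2 held the palindrome 153 bases before its start, which counts as 1 match on each strand.

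The question the comparison addresses is which cells of the muscle differed in these genes between apnea and control. In macrophage-like cells, the tissue's resident and recruited phagocytes, 5 genes of the list rose with OSA and 1 fell. Those that rose were the lactate exporter Slc16a3, the glycolytic enzymes Pgk1 and Pkm, the cytokine Mif and the MYC antagonist Mxi1. The one that fell was Cited2, which competes with hypoxia-inducible factors for a shared co-activator. The class held 203 control cells and 392, 403 and 1552 cells of OSA replicates 1, 2 and 3, with 1461189, 3361378, 2477721 and 11458778 UMIs in that order. CPM in these comparisons are scaled by TMM, edgeR's correction for library composition. Each gene was tested by edgeR (quasi-likelihood), and p-values were adjusted by Benjamini-Hochberg over all 11969 genes tested in the class. Over all those genes, 0.593% passed in the higher direction and 0.886% in the lower one (1.48% either way).

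Slc16a3 stood at 10.6 CPM in the control and at 41.9, 73.6 and 69.5 CPM in OSA replicates 1, 2 and 3. It had the largest rise of the called genes, a log2 change of 2.53 ± 0.47 (SE, adjusted p = 0.0181), and every OSA library lay above the control. Mxi1 stood at 26.0 CPM in the control and at 123, 86.2 and 132 CPM in the OSA libraries. Its log2 change was 2.13 ± 0.38 (SE, adjusted p = 0.0148), with OSA replicate 2 the lowest of the OSA libraries. Pgk1, which makes the first ATP of glycolysis, had the 2 upstream matches printed above. Its level was 43.9 CPM in the control against 158, 124 and 191 CPM with OSA, a log2 change of 1.85 ± 0.37 (SE, adjusted p = 0.0237). Pkm, the pyruvate kinase of most tissues, was at 208 CPM in the control and at 624, 602 and 1034 CPM with OSA. OSA replicate 3 was the highest, and the log2 change was 1.86 ± 0.41 (SE, adjusted p = 0.0393). Mif, a cytokine that macrophages themselves store and release, was at 139.8 CPM in the control and at 415, 456 and 649 CPM with OSA. Its log2 change of 1.86 ± 0.38 (SE, adjusted p = 0.0277) was close in size to that of Pkm.

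Cited2 went the other way. It stood at 242 CPM in the control and at 92.5, 77.0 and 68.7 CPM in the OSA libraries, which lay close together. The log2 change was -1.61 ± 0.28 (SE, adjusted p = 0.0135).

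**Figure D1:**
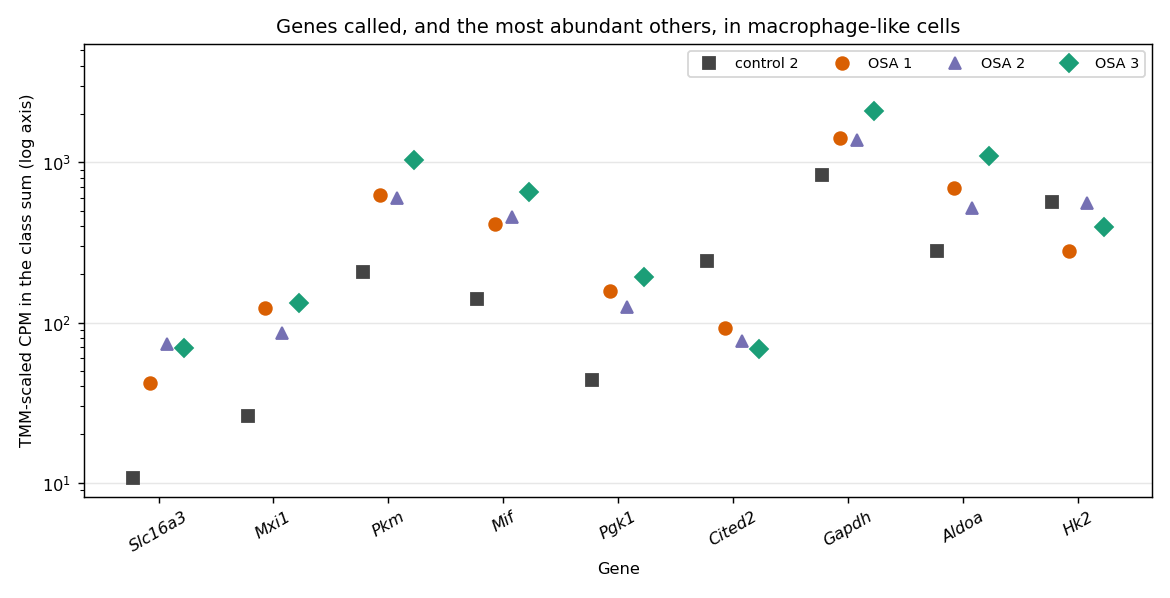
TMM-scaled CPM (log axis) of the 6 genes called in macrophage-like cells and of Gapdh, Aldoa and Hk2, the other genes among the 5 most abundant of the list, with 1 point per library. Slc16a3, Mxi1, Pkm, Mif and Pgk1 are higher in all 3 OSA libraries than in the control, Cited2 is lower in all 3, and Hk2 of OSA replicate 2 (556 CPM) is next to the control (564 CPM).

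The upper steps of glycolysis had values of both signs in these cells. Of the glucose transporters, Slc2a1, the transporter of basal uptake, was at 15.3 CPM in the control and at 58.9, 40.6 and 97.7 CPM with OSA. Its log2 change of 2.12 ± 0.58 did not pass (SE, adjusted p = 0.130). The high-affinity transporter Slc2a3 had lower values in every OSA library (10.8, 7.66 and 6.24 CPM against 27.3 CPM), again without passing (log2 change -1.76 ± 0.42 SE, adjusted p = 0.0551). Hk2, the inducible hexokinase, was at 564 CPM in the control and at 281, 556 and 392 CPM with OSA (log2 change -0.46 ± 0.36 SE, adjusted p = 0.558). Hk1, the housekeeping hexokinase, had a log2 change of -0.01 ± 0.29 (SE), and its libraries overlapped. Gpi1, which turns glucose 6-phosphate into fructose 6-phosphate, had a log2 change of 0.79 ± 0.36 (SE). Among the phosphofructokinase genes, which set the pace of the pathway, Pfkl had a positive value (1.38 ± 0.39 SE, adjusted p = 0.0932). Pfkp (-0.43 ± 0.29 SE) and Pfkfb3 (-0.73 ± 0.33 SE) had negative ones.

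The lower steps, from aldolase to lactate, all had positive values. Aldoa, the muscle-type aldolase, was at 281 CPM in the control and at 688, 516 and 1089 CPM with OSA (log2 change 1.44 ± 0.44 SE, adjusted p = 0.131). The symbol Aldoa names 2 rows of the matrices, and the row used held 128530 of their UMIs and the other 36. Gapdh was at 829.9 CPM in the control and at 1416, 1376 and 2107 CPM with OSA (0.98 ± 0.37 SE, adjusted p = 0.207). Tpi1, the triose phosphate isomerase, did not pass (1.48 ± 0.36 SE, adjusted p = 0.0560). Pgam1 (1.53 ± 0.41 SE), Eno1 (0.99 ± 0.37 SE) and Ldha (0.77 ± 0.35 SE), the next enzymes down to lactate, lay above the control in each OSA library without passing. Aldoc was counted only 2 times in the control and 141 times in the OSA libraries together, a ratio of 6.44 with a counting interval of 1.75 to 53.7 (95%, exact).

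Targets outside glycolysis were mixed. Hilpda, a lipid droplet protein that blocks fat breakdown, had the largest log2 change of the list in these cells, 2.62 ± 0.63 (SE), but did not pass (adjusted p = 0.109). It stood at 18.6 CPM in the control and at 142, 59.4 and 141 CPM with OSA, so OSA replicate 2 was well below the other 2. The mitophagy receptors Bnip3 (0.50 ± 0.33 SE) and Bnip3l (0.82 ± 0.41 SE), the pyruvate dehydrogenase kinase Pdk1 (1.11 ± 0.45 SE) and the oxidoreductase Ero1a (1.22 ± 0.50 SE) had positive values. Ddit4, an inhibitor of mTOR signalling (-0.51 ± 0.33 SE), the histone demethylase Kdm3a (-0.64 ± 0.34 SE) and the peptide hormone Adm (-1.64 ± 0.71 SE) had negative ones. Car9 and Vldlr had 0 control counts and were not tested, and their OSA levels lay below what 3 control counts would give. Of the 36 genes tested, 27 had positive log2 changes with a median of 0.81, while the median of all genes tested in the class was 0.04. All OSA libraries lay above the control for 25 of the 36, against 35.1% of all genes tested, and below it for 8, against 32.7%.

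Other genes of the same chemistry were read from lists. All 7 tested genes of the pentose phosphate branch, which makes NADPH from glucose 6-phosphate, had positive values. Pgd, its 6-phosphogluconate dehydrogenase, rose from 57.2 CPM to 228, 179 and 321 CPM (log2 change 2.09 ± 0.41 SE, adjusted p = 0.0220). None of the 9 hypoxia-inducible factor subunits and oxygen sensors passed, and 6 had positive values. Of 18 other glycolysis and pyruvate genes tested 11 had positive values, and of 12 other hypoxia targets 9 had, with 0 passing in either list. Among 12 immediate early and heat shock genes, which respond to tissue handling as well as to stimulation, 0 had positive values, and Egr1 fell from 943 CPM to 362, 413 and 244 CPM (-1.48 ± 0.32 SE, adjusted p = 0.0377). Of the 7 cell cycle genes tested 6 had positive values and 0 passed, and the summed level of all 12 was 57.5 CPM in the control and 59.8, 66.2 and 39.1 CPM with OSA.

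RNA of other cells was looked at beside these values. Myofibres are rich in glycolytic mRNA, and the 15 myofibre markers summed to 119 CPM in the macrophage-like cells of the control and to 120, 230 and 60.4 CPM in those of OSA replicates 1, 2 and 3. Neutrophil markers summed to 43.1 CPM in the control and to 83.6, 782 and 112 CPM with OSA. Without OSA replicate 2 the log2 change of Slc16a3 was 2.41. The neutrophil markers of OSA replicates 1 and 3 (83.6 and 112 CPM) also lay above those of the control, and Slc16a3 was highest in neutrophil-like cells. The part of RNA from other cells in the changes was not tested.

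Without OSA replicate 1 only Slc16a3 passed, with a log2 change of 2.75 and an adjusted p of 0.0496, and without OSA replicate 2 16 genes passed, 14 higher and 2 lower. Calls over all genes moved in the same direction, to 0.165% without OSA replicate 1 and 10.5% without OSA replicate 2, so the direction of the move was not particular to the list. Without OSA replicate 1, Pgk1, Pkm, Mif and Mxi1 had log2 changes of 1.86, 1.99, 1.99 and 2.08, with adjusted p between 0.0965 and 0.172, and Cited2 had -1.73 with an adjusted p of 0.0883.

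The macrophage-like class was a mixture whose parts differed between the libraries. Cluster i1, led by Cd209f, Cd209g, Fcna, Folr2 and Lyve1, genes of long-lived tissue macrophages, made up 73.9% of the control class and 23.5%, 28.8% and 9.79% of the class in the OSA libraries. Clusters i14, i22 and i24 had 0 control cells. Cluster i24, led by Cd5l, Marco and Arg1, held 95 cells of OSA replicate 2, 2 of OSA replicate 1 and 3 of OSA replicate 3. In a class sum, a change of the mix and a change within cells cannot be told apart.

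**Figure D2:**
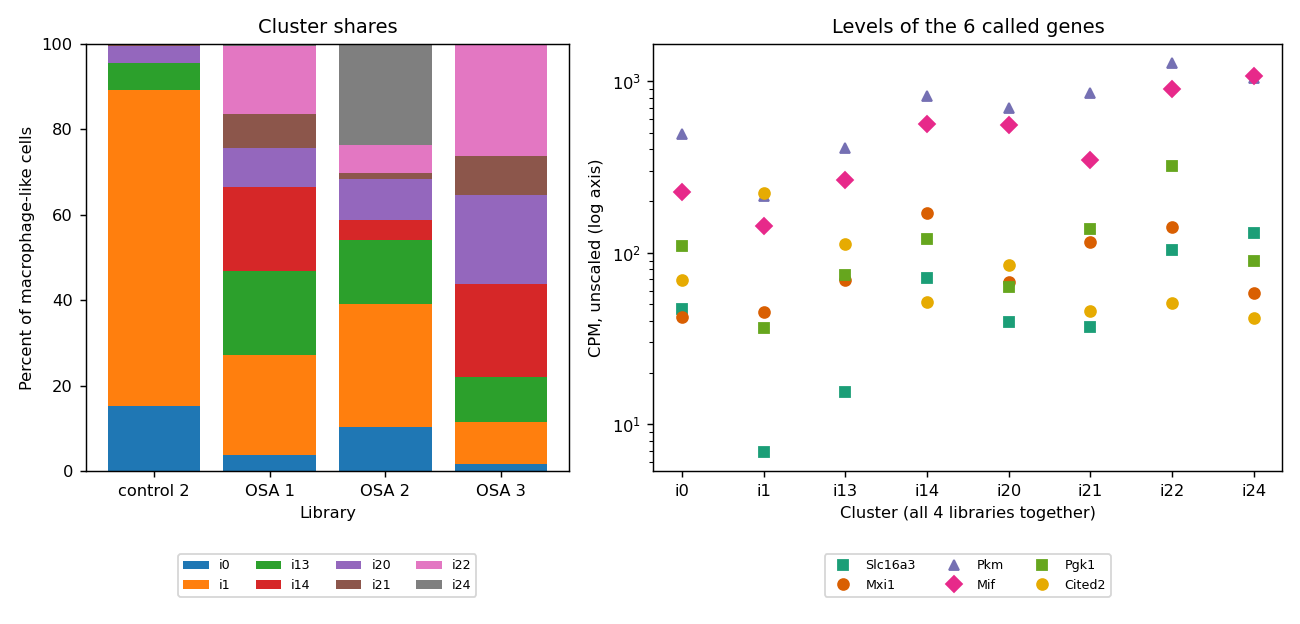
Left, the share of each macrophage-like cluster in the 4 libraries, as percent of the class; right, unscaled CPM (log axis) of the 6 called genes in each cluster, all libraries together. Cluster i1 fills 73.9% of the control bar, and with all libraries together it has the lowest Pgk1, Slc16a3, Pkm and Mif and the highest Cited2 of the 8 clusters.

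Levels by cluster, over all libraries together, are a description with no test, and the libraries contributed to the clusters unequally: 405 of the 494 cells of i22 came from OSA replicate 3. Pgk1 was at 36.3 CPM in i1, and at 319 CPM in i22. Pkm spanned 214 CPM in i1 to 1267 CPM in i22, and Aldoa 256 to 1377 CPM in the same 2 clusters. Slc16a3 was at 6.92 CPM in i1, 103 CPM in i22 and 131 CPM in i24. Cited2 had the opposite order, with 222 CPM in i1 and 41.7 to 112 CPM in the others. Hk2 was at 609 CPM in i1 and 312 CPM in i22, and Pfkfb3 (118 against 23.8 CPM) and Slc2a3 (23.5 against 3.73 CPM) were higher in i1 as well. Within each of the 4 libraries, over its clusters with at least 30 cells, i1 had the lowest Pkm, Aldoa and Mif and the highest Cited2. This did not hold for Pgk1 and Slc16a3. Pgk1 was lower in i20 of OSA replicate 1 (0 CPM in 36 cells) and in i13 of OSA replicate 2 (51.5 CPM against 60.0 CPM in i1). Slc16a3 was lowest in i13 of both libraries (5.50 and 14.1 CPM). Cluster i13 held 77 and 60 cells there, and whether these orders exceed counting error was not tested. Over all libraries together Hilpda was highest in i22 (184 CPM), i14 (162 CPM) and i21 (151 CPM), and lowest in i1 (11.8 CPM).

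Within cluster i1, the only macrophage-like cluster with 30 cells in each library, 0 of the 31 genes tested passed by edgeR and 0 by DESeq2, while 5 had an unadjusted p under 0.05. Over all 8442 genes tested in i1, 0.391% passed (0.225% higher, 0.166% lower). The log2 changes were positive for 25 of the 31, with a median of 0.37 against 0.03 for all genes. All OSA libraries lay above the control for 17 (23.5% of all genes) and below it for 1 (23.2%). Mxi1 was at 22.5 CPM in the control and at 43.1, 48.8 and 71.3 CPM with OSA, a log2 change of 1.28 ± 0.44 (SE, adjusted p = 0.351). Cited2 was at 324 CPM in the control and at 232, 136 and 168 CPM with OSA (-0.87 ± 0.28 SE, adjusted p = 0.205), and without OSA replicate 1 it passed. Pkm (0.76 ± 0.30 SE), Mif (0.65 ± 0.32 SE) and Pgk1 (0.59 ± 0.45 SE) had smaller fitted changes in i1 than in the whole class, and these differences were not tested. Slc16a3 was counted 2 times in the control cells of i1 and 18 times in its OSA cells, a ratio of 4.29 with a counting interval of 1.03 to 38.2, so its size in i1 was poorly determined. In the rest of the class, without i1, Mif (1.35, adjusted p = 0.0478) and Mxi1 (1.83, adjusted p = 0.0232) passed, while Slc16a3 (1.39), Pkm (1.26), Pgk1 (1.15) and Cited2 (-0.98) did not. Pfkp, which had not passed in the whole class, fell there (-1.52, adjusted p = 0.00965), in a fit where 2.13% of all genes passed. The control cells outside i1 were few: 31 in i0, 13 in i13, 8 in i20 and 1 in i21. Pfkp was high in i0, at 308 CPM in the control and 230 CPM in OSA replicate 2. In OSA replicates 1 and 3, where i0 had under 30 cells, the highest cluster was at 110 and 115 CPM. The part of i0 in the Pfkp change was not tested. This division of the class was chosen after the cluster shares were seen, and the remaining clusters differed in their shares too.

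**Figure D3:**
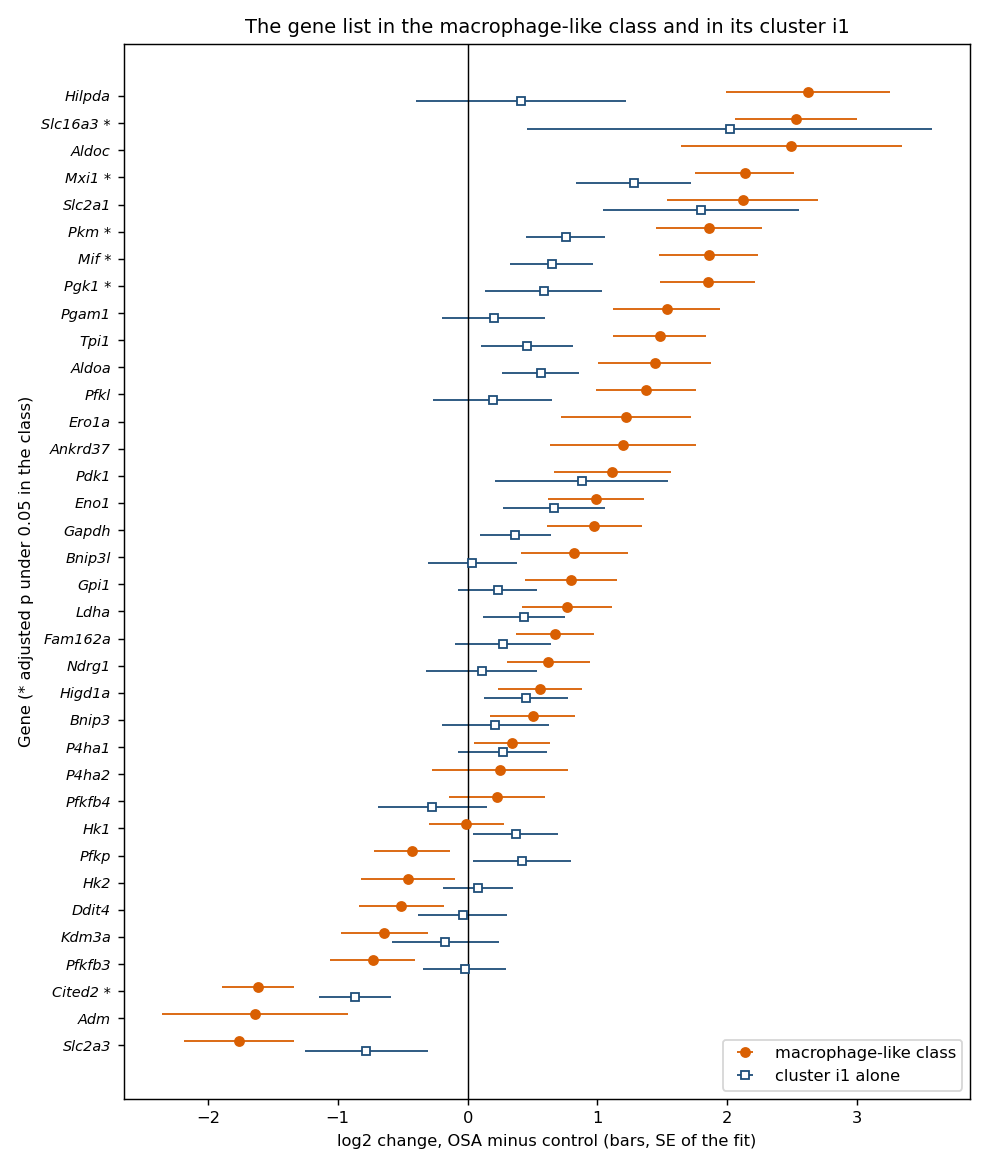
Log2 change (OSA minus control, bars SE of the fit) of each tested gene in the macrophage-like class, filled circles, and in its cluster i1, open squares. For Pgk1, Pkm, Mif and Hilpda the class values (1.85, 1.86, 1.86 and 2.62) lie to the right of the i1 values (0.59, 0.76, 0.65 and 0.41), while the i1 value of Slc16a3 (2.02) has a wide bar that covers its class value (2.53).

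The OSA change in macrophage-like cells was then tested against that in fibroblast-like, endothelial-like and mural-like cells of the same libraries, 3 comparisons with the library as a term. Against fibroblast-like cells 5 genes had a more positive log2 change in macrophage-like cells and 2 a more negative one (background 0.382% each way). Against endothelial-like cells it was 6 more positive and 1 more negative (0.403% and 0.415%). Against mural-like cells it was 8 more positive and 2 more negative (0.874% and 0.868%). Tpi1, Pgk1, Pkm, Mif and Mxi1 had a more positive log2 change, and Cited2 a more negative one, in all 3 comparisons. These comparisons share the macrophage-like sums and so are not independent of one another. Without OSA replicate 1, 0 genes differed against fibroblast-like cells, where 0.231% of all genes did.

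**Figure D4:**
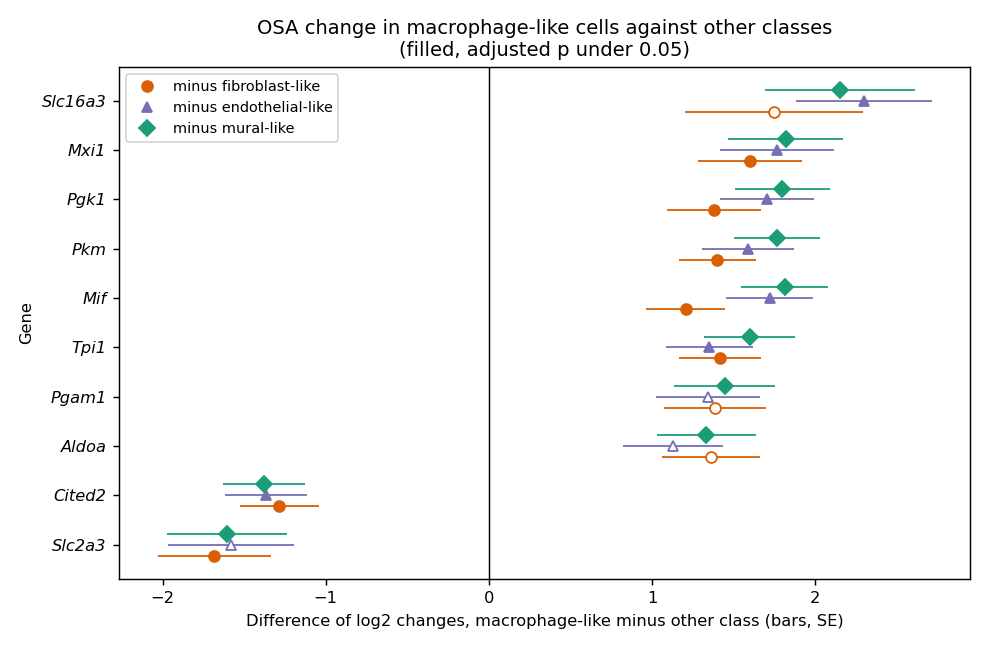
Difference of log2 changes (macrophage-like minus the other class, bars SE) for the 10 genes that passed in at least 1 of the 3 comparisons, filled where the adjusted p was under 0.05. Slc16a3 against endothelial-like cells has the largest difference (2.30), and Cited2 and Slc2a3 lie below 0 in every comparison.

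In T and NK-like cells 2 of 30 genes tested passed, both higher, where 2.05% of all 6985 genes rose and 3.19% passed either way. Hk2 was at 57.5 CPM in the control and at 96.7, 178 and 249.9 CPM in the OSA libraries, which did not overlap with the control (log2 change 1.63 ± 0.39 SE, adjusted p = 0.00211). Hilpda was at 29.9 CPM in the control and at 74.6, 74.9 and 110.4 CPM with OSA (1.55 ± 0.49 SE, adjusted p = 0.0493). By DESeq2, 0 passed. The median over the 30 was 0.40 against 0.05 for all genes, and all OSA libraries lay above the control for 18 (28.3% of all genes) and below it for 5 (27.4%). Of the other lists, the heat shock gene Hspa1a (85.0 CPM against 232, 156 and 331 CPM) and the lipid droplet coat Plin2 (16.1 CPM against 49.8, 65.6 and 77.5 CPM) rose. Plin2 was not typical of its list: of 6 other hypoxia targets tested 2 had positive values (median -0.54). Of 8 other glycolysis and pyruvate genes 2 had positive values as well. Positive values were found for 11 of 12 immediate early and heat shock genes, and for 4 of 5 pentose phosphate genes. All 6 hypoxia-inducible factor subunits and oxygen sensors tested had positive values, with 0 passing.

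This class, too, was a mixture. Cluster i11, led by the gamma-delta T cell genes Scart1 and Trdc with Il17a and Il23r, held 2.73% of T and NK-like cells in the control and 29.2%, 46.3% and 36.2% with OSA. Hk2 was at 358 CPM in i11 over all libraries, against 73.3 CPM in i3 and 67.3 CPM in i5, and Hilpda at 145 CPM against 42.4 and 58.1 CPM. In i3, led by Lef1, Trac and Cd8b1, Hk2 was at 31.1 CPM in the control, 38.7 CPM in OSA replicate 1 and 152 CPM in OSA replicate 3, the libraries with at least 30 cells there. The class held 110 control cells and 72, 54 and 149 OSA cells, so single clusters were not tested. Haemoglobin and other red cell markers summed to 10999 CPM in the T and NK-like cells of OSA replicate 1 against 223 to 479 CPM in the others, and the part of that RNA in the result was not tested. Hk2 passed without any 1 OSA library, whereas Hilpda had an adjusted p of 0.0905 without OSA replicate 2 and 0.137 without OSA replicate 3.

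Neutrophil-like cells, which live largely by glycolysis, had positive log2 changes for 28 of the 33 genes tested. Their median log2 change was 1.37, and 1.11 with the 3 genes at 0 in the control set to their bound, beside 0.26 for all genes. 0 of the 33 passed by edgeR or DESeq2, and 6 had an unadjusted p under 0.05, all higher. Over all 6027 genes, 0% passed. All OSA libraries lay above the control for 24 of the 33, against 37.4% of all genes, and below it for 2, against 27.4%. Pgk1 was at 81.3 CPM in the control and at 417, 274 and 582 CPM with OSA, and Ldha at 139 CPM against 558, 474 and 994 CPM. Both had all OSA libraries above the control, yet the control rested on 42 cells and 74138 UMIs. OSA replicate 2 differed from the other OSA libraries: its cells were mostly in cluster i19 (71.6%), led by the granule genes Ngp, Ltf and Camp of immature neutrophils. Without it 7 genes passed (Aldoa, Tpi1, Pgk1, Pgam1, Pkm, Ldha and Ankrd37), and so did 1.69% of all genes. In cluster i7 alone, which held 95.2% of the control neutrophil-like cells and was chosen after the shares were seen, 2 of 26 genes passed, where 1.11% of all genes did (0.732% higher, 0.381% lower). Gapdh was at 913 CPM in the control there and at 1707, 2005 and 2326 CPM with OSA (1.15 ± 0.31 SE, adjusted p = 0.0218). Pkm was at 263 CPM and at 873, 885 and 1266 CPM (1.94 ± 0.39 SE, adjusted p = 2.97e-04). All OSA libraries lay above the control for 15 of the 26 in i7 (33.6% of all genes) and below it for 4 (33.4%). Without OSA replicate 3, 0 passed in i7 (0% of all genes), and without OSA replicate 1 it was 1 (0.871%).

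In the other 8 classes tested (Schwann, endothelial, haemoglobin-rich, fibroblast, lymphatic endothelial, mural, satellite and tenocyte) 0 genes of the list passed by edgeR, with 2 to 8 per class at an unadjusted p under 0.05. DESeq2 called 1, Bnip3 in endothelial-like cells, where it called 0.179% of all genes. The share of all genes that passed either way was 0.173% in Schwann-like, 0% in endothelial-like and fibroblast-like, 0.24% in haemoglobin-rich, 0.142% in lymphatic endothelial-like, 0.0565% in mural-like, 0.0907% in satellite-like and 0.0475% in tenocyte-like cells. Their median log2 changes over the list lay between 0.09 and 0.25, beside medians of 0.01 to 0.02 for all genes. The nearest to passing was Hk2 in lymphatic endothelial-like cells, at 20.2 CPM in the control and at 48.7, 93.1 and 57.8 CPM with OSA (1.69 ± 0.41 SE, adjusted p = 0.0798). Bnip3 in endothelial-like cells was at 136 CPM in the control and at 227, 240.4 and 216 CPM with OSA (0.75 ± 0.17 SE, adjusted p = 0.586), and it passed when OSA replicate 1 or OSA replicate 3 was left out. Hk2 had values of over 1 on the log2 scale in tenocyte-like and haemoglobin-rich cells as well (1.11 ± 0.33 and 1.40 ± 0.52 SE), again without passing.

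**Figure D5:**
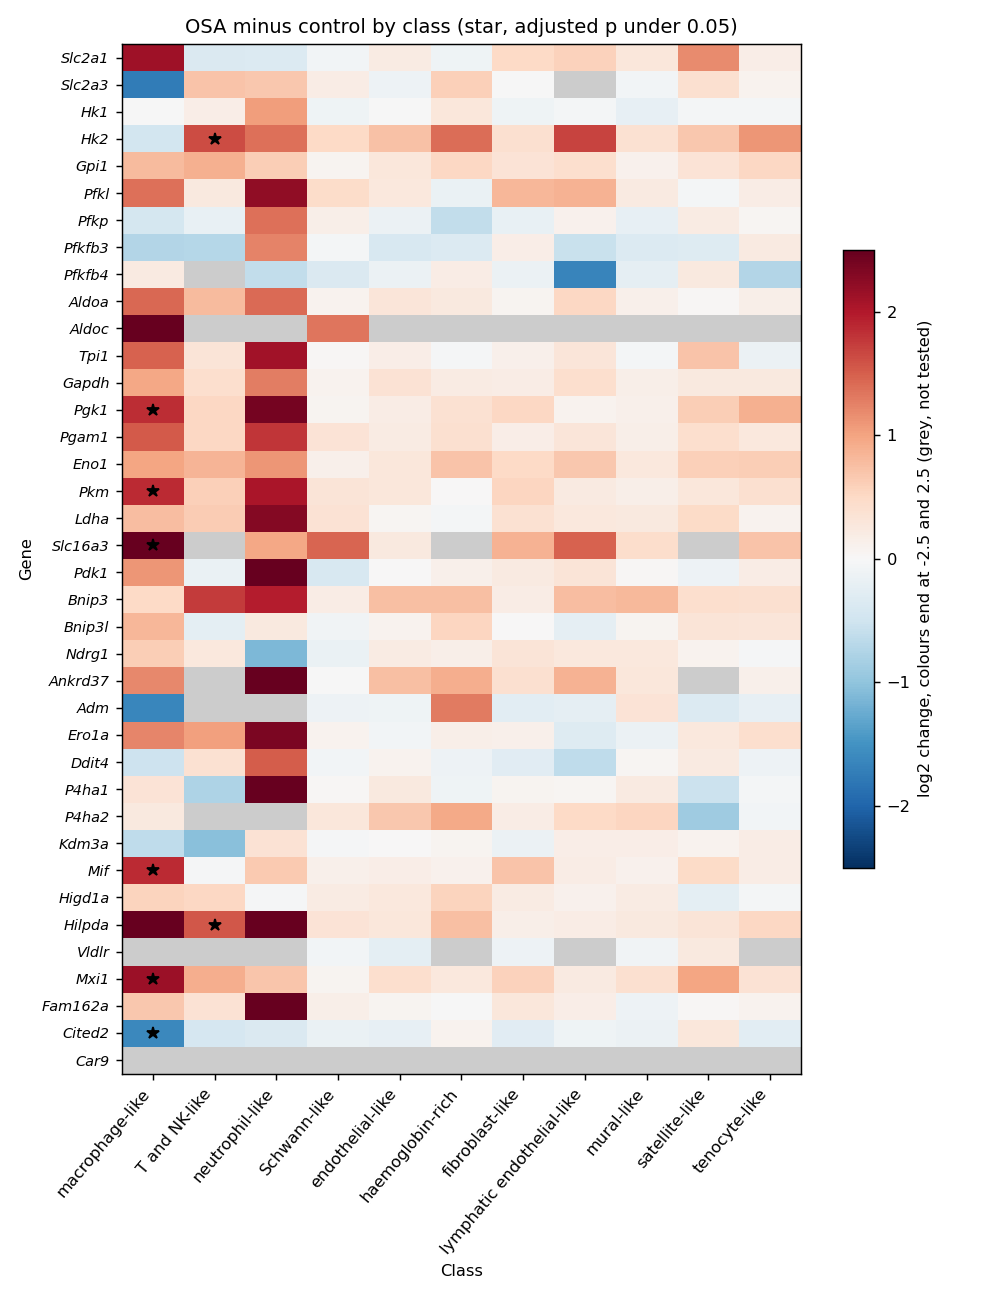
Log2 change (OSA minus control) of the 38 genes, rows, in the 11 classes, columns, with a star at an adjusted p under 0.05 and grey where a gene was not tested. Stars stand in the macrophage-like (6) and T and NK-like (2) columns alone; in the neutrophil-like column Ankrd37, Pdk1 and Fam162a had 0 control counts.

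The levels of these genes over the classes were not alike either, and each is compared here only with itself, in unscaled CPM as a mean of the 4 libraries. Ndrg1, a differentiation-linked gene whose loss causes a demyelinating neuropathy, was highest in Schwann-like cells (1464 ± 233 CPM, SD, n = 4) and next in lymphatic endothelial-like cells (663 ± 60.1 CPM). Hk2 was highest in fibroblast-like cells (989 ± 266 CPM), with macrophage-like cells next (452 ± 154 CPM) and endothelial-like cells lowest (22.2 CPM). Slc16a3 was highest in neutrophil-like cells (408 ± 99.0 CPM), with macrophage-like cells next (48.5 ± 28.9 CPM). Ddit4 led in endothelial-like cells (609 ± 32.9 CPM), Fam162a, a mitochondrial protein, in mural-like cells (293 CPM, lowest library 278 CPM), and P4ha1, a collagen prolyl hydroxylase subunit, in tenocyte-like cells (308 ± 21.5 CPM). For these 6 genes the lowest library of the highest class lay above the highest library of the next class. Neutrophil-like cells had the highest mean for 16 genes, 4 of them without such overlap, and macrophage-like cells for 5, all with overlap. The same count was not made over all genes, so these numbers cannot be called particular to the list. The neutrophil-like means include a control of 42 cells and 74138 UMIs. Both transporters Slc2a1 (177 ± 64.6 CPM) and Slc2a3 (181 ± 71.3 CPM) were highest in neutrophil-like cells without overlap.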

How the data were processed

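Single-cell RNA libraries of mouse genioglossus were read as matrices of raw UMI counts per gene and barcode, deposited as counts by the authors and made with Cell Ranger 9.0.1, per the matrix headers. The labels name GRCm39 (mm39) as the build. The 38 genes, the marker lists and the other gene lists were chosen with earlier results of these data known.

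Barcodes with at least 300 genes, at least 500 UMIs and at most 20% mitochondrial UMIs were kept, and Scrublet (scanpy 1.11.5) marked 358 to 574 doublets per library, which were removed. Cells were clustered on 2000 variable genes without the 38 (30 components, 15 neighbours, resolution 1). A cluster was named from 20 marker lists, needing at least 3 markers at a fold of 2 or more. The names are rebuilt, and 17 classes resulted. Raw counts were summed per library and class, for classes with at least 30 cells in each library. The sums were tested with edgeR 4.0.16 (quasi-likelihood, TMM, low-count filter, Benjamini-Hochberg adjustment, threshold 0.05). DESeq2 1.42.0 was an alternative. Differences of the OSA change between classes were tested by a class-by-group term in edgeR with the library as a term. Each SE was worked back from the edgeR test, as the size of the log2 change divided by the square root of its F value. Named genes were those of the list that passed in a class, the 5 of highest mean in macrophage-like cells, and passing genes of 6 other lists, with the rest of the list given by range or by example.

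Library totals were 70217449 to 82184913 UMIs. On simulated data the macrophage-like fit recovered 26% of 2-fold and 82% of 4-fold changes with 7 false calls among 11686 genes. The simulation gave every gene and library the same dispersion (0.02) and no difference in cluster mix. Its rates therefore cannot be carried over to the real sums. Counting intervals and floors (3 counts) cover counting error only. Promoter windows came from RefSeq (GRCm38.p6) by symbol, and no coordinates were moved between builds.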

Additional observations from a re-analysis of the deposited data

Results flagged for a closer look

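The OSA change itself differed between macrophage-like cells and another class of the same libraries for 10 genes, by edgeR's test of the class-by-group term with Benjamini-Hochberg adjustment. All values are differences of log2 changes, macrophage-like minus the other class, with the standard error.

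Against fibroblast-like cells the difference was 1.42 ± 0.25 for Tpi1, 1.38 ± 0.29 for Pgk1, 1.40 ± 0.23 for Pkm, 1.21 ± 0.24 for Mif and 1.60 ± 0.32 for Mxi1. It was -1.68 ± 0.35 for Slc2a3 and -1.28 ± 0.24 for Cited2. The adjusted p lay between 0.0141 (Pkm) and 0.0408 (Pgk1).

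Against endothelial-like cells it was 1.35 ± 0.27 for Tpi1, 1.71 ± 0.29 for Pgk1, 1.59 ± 0.28 for Pkm, 2.30 ± 0.42 for Slc16a3, 1.72 ± 0.27 for Mif, 1.76 ± 0.35 for Mxi1 and -1.37 ± 0.25 for Cited2. The adjusted p lay between 0.00857 (Mif) and 0.0344 (Mxi1).

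Against mural-like cells it was 1.33 ± 0.30 for Aldoa, 1.60 ± 0.28 for Tpi1, 1.80 ± 0.29 for Pgk1, 1.44 ± 0.31 for Pgam1 and 1.77 ± 0.26 for Pkm. Slc16a3 had 2.15 ± 0.46, Mif 1.81 ± 0.27, Mxi1 1.82 ± 0.35, Slc2a3 -1.61 ± 0.37 and Cited2 -1.38 ± 0.25. The adjusted p lay between 9.39e-04 (Mif) and 0.0303 (Aldoa). The 3 comparisons share the macrophage-like sums, whose cluster shares differed between the libraries, and the part of those shares in the differences was not tested.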

How the results depend on the processing

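With 1 control library the control could not be left out, and all comparisons rest on it. No result reversed. In macrophage-like cells, where 6 genes and 1.48% of all genes passed, DESeq2 called 11 (1.48% of all genes). The fit with no filter on low counts gave 13 (3.66%), sums thinned to equal totals 10 (3.33%), and the class without cluster i1 3 (2.13%). Leaving out 1 OSA library gave 1 to 16. In T and NK-like cells, where 2 genes and 3.19% of all genes passed, DESeq2 (0.277% of all genes) and a minimum of 10 counts in each library (2.46%) gave 0. RLE size factors (3.19%), no filter (1.0%), thinning (2.83%) and clustering with the list among the variable genes (3.06%) gave 1 each. Leaving out 1 OSA library gave 1 to 2 there, with 1.8% to 5.48% of all genes. In endothelial-like cells, where 0 had passed, DESeq2 and no filter gave 1 each (0.179% and 0.695% of all genes). In lymphatic endothelial-like cells, where 0 had passed too, no filter and thinning gave 1 each (0.193% and 0.408%). Leaving out 1 OSA library gave 0 to 4 in endothelial-like cells, 0 to 7 in neutrophil-like cells, and 0 to 1 in haemoglobin-rich, lymphatic endothelial-like, satellite-like and tenocyte-like cells and in cluster i1. The 4 came without OSA replicate 1, where 2.39% of all genes passed, and the 7 without OSA replicate 2, where 1.69% did. The fits that gave 1 had 0.4% to 1.38% of all genes passing. Cluster i7 alone gave 2 for the neutrophil-like class (1.11% of all genes). For the differences between classes no filter gave 14 against endothelial-like (2.86% of all genes) and 14 against fibroblast-like cells (2.72%). Leaving out 1 OSA library gave 9 to 17 against endothelial-like cells, 0 to 16 against fibroblast-like cells and 12 to 19 against mural-like cells. In the main fits 0.818%, 0.765% and 1.74% of all genes differed in that order. The 9 stood beside 1.4% of all genes, the 0 beside 0.231%, and the 12 beside 3.41% (without OSA replicate 1) and 2.54% (without OSA replicate 3). The highest counts came without OSA replicate 2, where 6.81%, 7.67% and 5.3% of all genes differed in that order. In macrophage-like cells it was 10.5% of all genes without OSA replicate 2. The causes were not tested. The fits without i1 and with i7 alone were chosen after the cluster shares were seen. No paired analysis was possible because the control and OSA libraries read here share fewer than 2 replicate numbers. The planned fit without proliferating clusters was not run, since no macrophage-like cluster had Mki67 or Top2a among its leading genes.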
